A study of Mus musculus with 12 samples.

Results

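The genes described are Snap25 and 8 other genes of the machinery that fuses secretory vesicles with the cell surface: Snap23, Snap29, Stx1a, Stx3, Stx4a, Vamp2, Vamp3 and Syt1. Every probe set (a group of short probes for one transcript) whose platform annotation names 1 of these genes was taken, which gave 26 of the 45101 probe sets on the array and 9 of the 18194 genes with a probe set of their own. The series asked how loss of part of the chromatin remodeller Snf2l bears on ovulation in mice. It measured RNA of granulosa cells, the somatic cells that line the ovarian follicle, on 12 Affymetrix mouse arrays, 3 in each of 4 groups. The groups were wild type (WT) at 0 h, WT at 4 h, Ex6DEL at 0 h and Ex6DEL at 4 h.

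Ex6DEL mice lack exon 6 of Snf2l, the gene listed on the array as Smarca1. Per the labels, a floxed exon 6 made in 129Sv mice was deleted by a ubiquitously expressed Gata-1 Cre transgene on a CD-1 background, after which the deleted allele was kept on 129SV without Cre. WT mice were littermates. Because the Cre was expressed throughout the body and the deleted allele was inherited, the deletion is not limited to granulosa cells. All females were 24 to 26 days old and all, also those of 0 h, had been given PMSG (pregnant mare serum gonadotropin, 5 IU), a hormone that makes follicles grow, 48 h earlier. Mice of the 4 h groups were next given hCG (human chorionic gonadotropin, 5 IU), a ligand of the luteinizing hormone receptor that sets off ovulation, and their cells were taken 4 h later. Each array carried RNA pooled from 5 mice. The labels do not say if each of the 3 arrays had its own pool, so p-values measure the spread between these arrays, which may be technical. No group received PMSG alone for the longer time, so the 4 h of hCG and the 4 h of added time cannot be told apart.

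SNARE proteins drive membrane fusion. A vesicle SNARE of the VAMP family pairs with target SNAREs of the syntaxin and SNAP-25 families on the receiving membrane, and the helical bundle they form pulls the membranes together. SNAP25 is best known from neurons and endocrine cells, where it acts with STX1A and VAMP2, and synaptotagmin 1 (SYT1) senses the calcium that triggers release. SNAP23 takes the place of SNAP25 in many other cells, with STX3 or STX4 as syntaxin and VAMP3 on recycling endosomes, and SNAP29 works mainly on internal membranes. Granulosa cells secrete peptides, growth factors and matrix proteins around ovulation.

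Promoter windows of 250 bases upstream of the RefSeq start were at hand for 6 of the 9 genes (GRCm38.p6). Those of Stx3 and Stx4a are shown because both encode target-membrane syntaxins and because Stx3 alone of the syntaxins had arrays that did not overlap between 0 h and 4 h in either genotype. Stx3 is at chr19:11819404-11819653 on the minus strand and Stx4a at chr7:127841558-127841807 on the plus strand. Both are written 5′ to 3′ along the gene, with matches to the motifs searched in capitals.
Stx3: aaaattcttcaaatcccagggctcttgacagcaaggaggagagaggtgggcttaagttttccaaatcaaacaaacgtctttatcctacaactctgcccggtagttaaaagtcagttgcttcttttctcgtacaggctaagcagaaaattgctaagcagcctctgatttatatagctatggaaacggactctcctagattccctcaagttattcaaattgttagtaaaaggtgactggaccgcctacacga
Stx4a: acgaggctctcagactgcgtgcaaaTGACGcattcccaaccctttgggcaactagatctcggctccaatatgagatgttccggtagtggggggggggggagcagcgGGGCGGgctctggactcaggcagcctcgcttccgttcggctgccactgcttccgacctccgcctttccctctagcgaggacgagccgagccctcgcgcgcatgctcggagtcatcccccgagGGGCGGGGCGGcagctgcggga
These 5 motifs were searched on both strands. The cAMP response element (CRE) TGACGTCA stood in 1.55% of the 32851 RefSeq mouse windows of this length, its core TGACG, which lies inside it, in 17.8%, the AP-1 site TGACTCA in 4.46%, the RUNX site TGTGGT in 14.0% and the GC box GGGCGG in 32.7%. The Stx3 window (42.0% G or C) held no match to any of them. The Stx4a window (66.4% G or C) held the core TGACG at -225 to -221 from the start and GC boxes at -144 to -139, -22 to -17 and -17 to -12, the last 2 sharing a base.

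The values are log2 intensities made with GCRMA, which corrects background. Their floor, the lowest value of the table, was 2.21, and the array medians lay between 2.75 and 2.91. GCRMA also gives many arrays the same background-level value: 10 of the 26 probe sets repeated 1 value (within 0.01) on at least 6 of 12 arrays, as did 50.1% of all probe sets with 1 gene symbol. Such a repeated value can lie above the floor, as with 3.85 on 9 arrays for Snap23 set 1420896_at. Smarca1 itself ranged from 10.3 to 12.3 over the 12 arrays on its 1 probe set, whose place relative to exon 6 is not known here, so it does not check the genotype. Markers of granulosa cells were high on every array, with means of 11.9 to 12.7 in WT 0 h, 11.51 to 11.98 in WT 4 h, 12.6 to 13.4 in Ex6DEL 0 h and 11.16 to 11.24 in Ex6DEL 4 h, although Amh, one of the 10 measured, was near the floor throughout and Esr2 lay between 4.64 and 7.43. Of these 10 markers 2 fell between 0 h and 4 h in Ex6DEL: Fshr, the follicle-stimulating hormone receptor, by 4.34 (limma adjusted p = 0.0285) and Inhbb, an inhibin and activin subunit, by 5.45 (limma adjusted p = 0.0269). None of the 10 passed in WT (Fshr -2.44, Inhbb -2.11), and the part of such markers in the results was not tested. Theca and stroma markers averaged 7.59 to 9.41 except on Ex6DEL 0 h replicate 1, at 12.30. Ex6DEL 0 h replicate 3 stood apart: of 90 genes at least 4 log2 units higher at 4 h in WT, 74 exceeded its group mates by more than 1. To a smaller degree WT 0 h replicate 1 did so too. Of 107 genes at least 4 higher at 4 h in Ex6DEL, 36 exceeded its group mates by more than 1. The median excess of the 107 was 0.44. The 90 genes were chosen against WT 0 h replicates 2 and 3 alone. The 107 were chosen against Ex6DEL 0 h replicates 1 and 2 alone.

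Snap25 was the 1 gene of the 9 that passed the test as higher after hCG in the main fit. On its stronger probe set, 1416828_at, the log2 values were 2.51, 2.46 and 2.38 in WT at 0 h and 9.16, 8.12 and 8.52 at 4 h. In Ex6DEL cells they were 2.38, 2.68 and 2.41 at 0 h and 9.87, 8.46 and 8.94 at 4 h. All 6 arrays of 0 h lay below the lowest array median and all 6 of 4 h far above it, so the times did not overlap in either genotype. The rise was 6.15 in WT (SE 0.36, 95% interval 5.34 to 6.96, n = 3 arrays a group, limma adjusted p = 3.16e-04). In Ex6DEL it was 6.60 (SE 0.36, interval 5.79 to 7.41, limma adjusted p = 3.93e-04). Since the 0 h values were at background, the size of the fold is uncertain. With every value under the table's median raised to it, this probe set rose by 5.78 in WT and 6.27 in Ex6DEL. Those means correspond to 54.9-fold and 77.0-fold, which leaves out the spread between arrays. A limma fit of the 6 Ex6DEL arrays alone left the Ex6DEL rise just outside the threshold (adjusted p = 0.0532).

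A weaker Snap25 probe set, 1447763_at, gave 2.21, 2.42 and 2.21 in WT at 0 h and 4.48, 4.47 and 3.61 at 4 h. In Ex6DEL it gave 2.42, 2.21 and 2.44 at 0 h and 4.63, 5.40 and 5.50 at 4 h. It too sat near the floor at 0 h and above every 0 h array at 4 h. Fitted with all 45101 probe sets, it rose by 1.91 in WT (SE 0.28, limma adjusted p = 0.0384) and by 2.82 in Ex6DEL (SE 0.28, limma adjusted p = 0.0145). With the replicate number as a block, whose effects are shared by all 4 groups, the Ex6DEL value just missed the threshold (limma adjusted p = 0.0501). In WT this probe set was not called with the block either. The WT call was kept in 4 of 12 limma fits that left out 1 array (1.76 to 2.20): those without WT 4 h replicate 3, Ex6DEL 0 h replicate 1 or 3, or Ex6DEL 4 h replicate 1. Averaging both probe sets gave Snap25 rises of 4.03 in WT and 4.71 in Ex6DEL, both called.

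**Figure D1:**
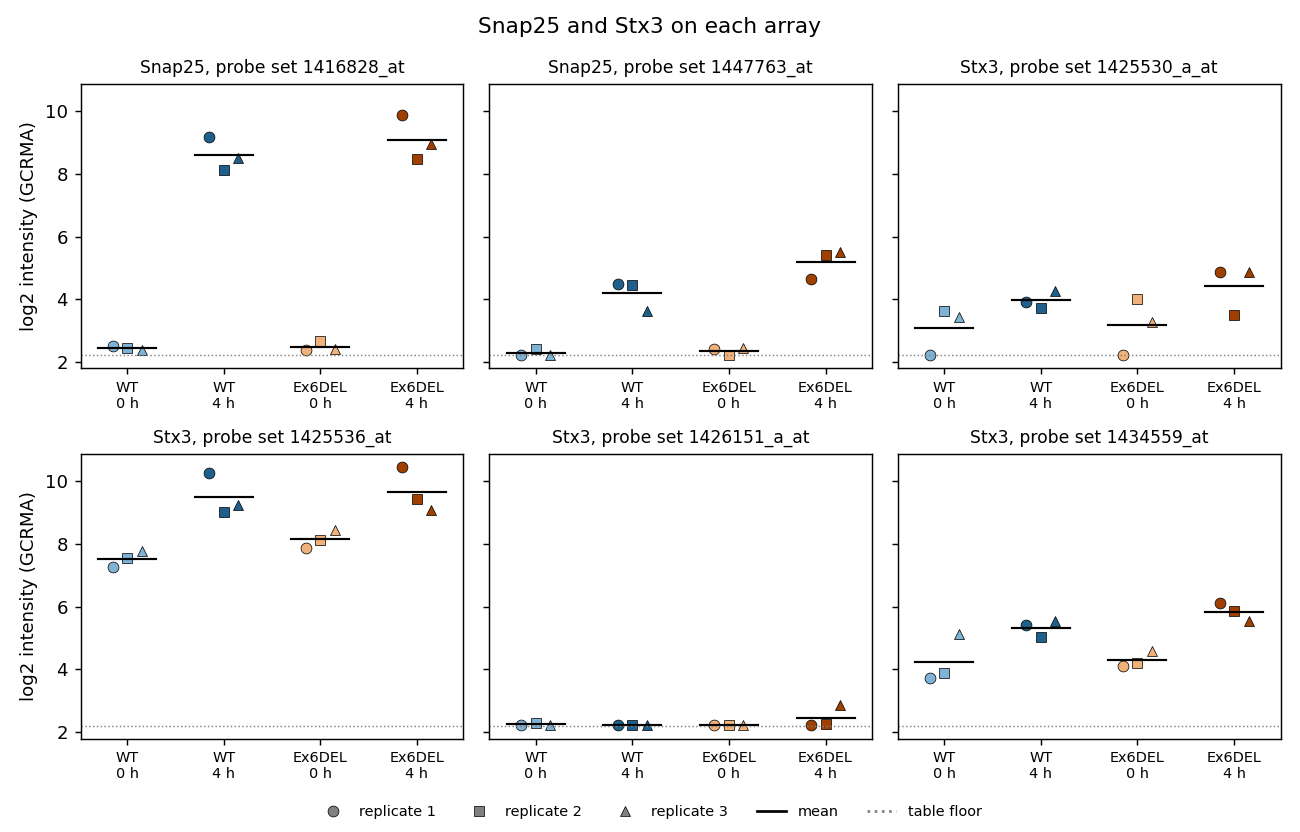
Log2 intensity of both Snap25 and all 4 Stx3 probe sets on each of the 12 arrays, by group, with the group mean as a bar and the floor of the table as a dotted line. Both Snap25 probe sets lie between 2.21 and 2.68 at 0 h and between 3.61 and 9.87 at 4 h, and Stx3 probe set 1425536_at lies between 7.26 and 8.46 at 0 h and between 9.02 and 10.46 at 4 h.

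Among all genes, 0.61% passed the test as higher in WT and 0.566% in Ex6DEL (0.929% and 2.17% in either direction), and 0.379%, or 69 genes, passed as higher in both. Snap25 was 1 of these 69. Markers of neurons and neuroendocrine cells, in which SNAP25 is abundant, were low: the 13 measured of 15 averaged 2.84 to 3.04 on every array and none was called in any comparison. Elavl3, Nefl, Stmn2, Th and Syn1 were within 0.1 of the floor on all 12 arrays, and Syp, the synaptic vesicle protein synaptophysin, reached at most 2.83. Others of the list lay higher, with Tubb3 at 4.43 to 5.84, Dbh at 3.30 to 6.46 and Map2 at 2.99 to 5.10. Nefm, a neurofilament subunit, was at 2.21 to 2.32 except on WT 4 h replicate 1 (4.82) and Ex6DEL 4 h replicate 3 (4.98), and was not called (0.91 in WT and 0.94 in Ex6DEL, limma adjusted p = 0.686 and 0.593). On Ex6DEL 0 h replicate 3, the array that stood apart, the 90 genes named above exceeded the other 2 arrays of their group by a median of 3.33 (range -1.10 to 9.997). Snap25, itself 1 of the 90, was there -0.12 against those arrays, and 4 of the 90 genes, Snap25 included, lay at or below this value. On WT 0 h replicate 1 Snap25 was 0.09 above its group mates. Without Ex6DEL 0 h replicate 3 the Snap25 rise in Ex6DEL was 6.56 (limma adjusted p = 8.97e-04). Without Ex6DEL 0 h replicate 1, the array with raised theca and stroma markers, it was 6.54 (limma adjusted p = 0.0028).

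The other members of the SNAP-25 family did not pass the test. Snap23, the widely expressed relative, had 6.37, 6.73 and 6.81 in WT at 0 h and 6.76, 6.28 and 5.82 at 4 h on probe set 1420897_at. The Ex6DEL arrays gave 5.58, 6.43 and 6.46 at 0 h and 6.78, 5.82 and 6.14 at 4 h. All 4 groups overlapped. The Snap23 difference between times was -0.35 in WT (interval -1.13 to 0.43, limma adjusted p = 0.707) and 0.09 in Ex6DEL (interval -0.69 to 0.87, limma adjusted p = 1). A second Snap23 probe set, 1420898_at, was 0.65 lower at 4 h in WT by its mean (-0.65, unadjusted p = 0.0135, limma adjusted p = 0.289) and 0.17 higher in Ex6DEL, and the difference between these responses was 0.83 (unadjusted p = 0.0226, limma adjusted p = 0.871). The third Snap23 set, 1420896_at, read 3.85 on 9 of 12 arrays.

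Snap29, the SNAP protein of internal membranes, had 4.73, 4.34 and 4.09 in WT at 0 h and 3.37, 4.09 and 4.09 at 4 h on probe set 1423356_at. Ex6DEL cells had 5.02, 3.83 and 4.09 at 0 h and 4.09, 4.40 and 4.09 at 4 h. The value 4.09 came back on 6 of 12 arrays, and the differences of -0.54 in WT and -0.12 in Ex6DEL were not called (limma adjusted p = 0.551 and 0.985). Snap29 set 1423355_at read 2.26 on 9 arrays and 3.65, 2.64 and 2.33 in WT at 4 h, so its WT times did not overlap, without passing the test (0.61, limma adjusted p = 0.479). Set 1423354_at stayed between 2.29 and 2.33.

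Of the syntaxins, the target SNAREs that anchor the complex in the plasma membrane, Stx3 was the one whose arrays separated by time. Stx3 encodes the syntaxin of apical and granule secretion in epithelia and blood cells. On probe set 1425536_at it had 7.26, 7.56 and 7.77 in WT at 0 h and 10.25, 9.02 and 9.24 at 4 h. In Ex6DEL it had 7.86, 8.13 and 8.46 at 0 h and 10.46, 9.44 and 9.09 at 4 h. Every array of 4 h was above every array of 0 h. The difference was 1.97 in WT (SE 0.41, interval 1.04 to 2.90, 3.92-fold) and 1.52 in Ex6DEL (SE 0.41, interval 0.58 to 2.45, 2.86-fold). Neither passed over all genes (limma adjusted p = 0.0661 and 0.0933, unadjusted p = 0.00109 and 0.00532).

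The Stx3 call depended on the setting. It passed in both genotypes after quantile normalization (limma adjusted p = 0.0425 in WT and 0.0468 in Ex6DEL) and when genes above the median level alone were tested (0.0184 and 0.0309), and in WT also with array weights (0.00834) and with low values raised (0.0375). It passed in none of the 12 limma fits that left out 1 array (adjusted p 0.0576 to 0.185 in WT and 0.0712 to 0.255 in Ex6DEL). Stx3 was 0.46 higher on Ex6DEL 0 h replicate 3 than on its group mates, and without that array its Ex6DEL difference was 1.67 (limma adjusted p = 0.0802). Without Ex6DEL 0 h replicate 1 it was 1.37 (limma adjusted p = 0.255).

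The other Stx3 probe sets were weaker. Set 1434559_at had 3.74, 3.90 and 5.12 in WT at 0 h and 5.43, 5.03 and 5.54 at 4 h, and 4.10, 4.21 and 4.59 against 6.11, 5.85 and 5.53 in Ex6DEL. Its times overlapped in WT and not in Ex6DEL, with differences of 1.08 (limma adjusted p = 0.292) and 1.53 (limma adjusted p = 0.102). Set 1425530_a_at differed by 0.87 and 1.23 (limma adjusted p = 0.661 and 0.403) with an SE of 0.57, and had 2.23 on replicate 1 of 0 h in both genotypes. Set 1426151_a_at was within 0.1 of the floor on 11 of 12 arrays. Averaged over the 4 probe sets, the Stx3 difference was 0.98 in WT and 1.12 in Ex6DEL.

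Stx1a, the syntaxin of neuronal release, had 8.36, 9.55 and 8.40 in WT at 0 h and 7.60, 8.69 and 7.86 at 4 h on probe set 1437390_x_at. Ex6DEL cells had 7.89, 9.86 and 7.77 at 0 h and 7.59, 9.15 and 7.19 at 4 h. Replicate 2 was the highest array in each of the 4 groups, and the groups overlapped. The Stx1a difference was -0.72 in WT and -0.53 in Ex6DEL (SE 0.71, limma adjusted p = 0.709 and 0.773). Taking out the replicate number as a block brought the SE to 0.25, still without a call (limma adjusted p = 0.251 in WT and 0.304 in Ex6DEL). Within the same-numbered Ex6DEL arrays, Stx1a was lower at 4 h in 3 of 3 pairs (-0.31, -0.71 and -0.58). The same-numbered WT arrays, whose pairing is less clear, were also lower at 4 h in 3 of 3 (-0.76, -0.87 and -0.54). The share of all genes with 3 of 3 pairs in 1 direction was not counted, so these pairs are a description. The suffix of this probe set marks probes that can bind several transcripts. The other Stx1a set, 1448366_at, differed by -0.50 in WT and -0.11 in Ex6DEL (limma adjusted p = 0.717 and 1).

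Stx4a, the mouse gene of syntaxin 4, which serves constitutive and regulated secretion in many cells, was measured by 1 probe set. It had 8.69, 9.40 and 9.60 in WT at 0 h and 10.005, 9.997 and 9.48 at 4 h. In Ex6DEL it had 9.36, 9.82 and 9.20 at 0 h and 10.004, 9.11 and 9.54 at 4 h. The groups overlapped, and the difference was 0.60 in WT (interval -0.11 to 1.31, limma adjusted p = 0.440) and 0.09 in Ex6DEL (interval -0.62 to 0.79, limma adjusted p = 1).

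The vesicle SNAREs did not pass the test either. Vamp2, the synaptic vesicle SNARE, had 6.61, 6.90 and 6.99 in WT at 0 h and 4.94, 7.19 and 6.34 at 4 h on probe set 1420834_at. The Ex6DEL arrays gave 6.67, 7.13 and 6.58 at 0 h and 5.34, 6.74 and 6.56 at 4 h. Replicate 1 was the lowest array of 4 h in both genotypes and set the size of the means' difference: -0.68 in WT and -0.58 in Ex6DEL with all arrays (SE 0.56, limma adjusted p = 0.625 and 0.617), but -0.07 without WT 4 h replicate 1 and -0.15 without Ex6DEL 4 h replicate 1. The same replicate number had the highest 4 h value of Snap25 set 1416828_at and of Stx3 set 1425536_at in both genotypes. The second Vamp2 set read 3.16 on 8 of 12 arrays.

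Vamp3, also called cellubrevin, the SNARE of recycling endosomes, had 10.95, 11.68 and 11.80 in WT at 0 h and 11.64, 11.97 and 11.35 at 4 h on probe set 1456245_x_at. Ex6DEL cells had 11.38, 12.15 and 12.06 at 0 h and 11.46, 11.62 and 11.45 at 4 h. The differences were 0.17 in WT (interval -0.46 to 0.80, limma adjusted p = 0.903) and -0.36 in Ex6DEL (interval -0.99 to 0.28, limma adjusted p = 0.527). Their signs were not stable: quantile normalization gave -0.32 in WT, and without probe sets that bind several transcripts the Ex6DEL value was 0.46. Of the 4 other Vamp3 sets, 1421102_a_at had arrays that did not overlap in Ex6DEL, 2.68 on all 3 arrays of 0 h against 4.00, 3.34 and 2.75 at 4 h (0.68, limma adjusted p = 0.567). None of the 4 passed in either genotype.

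Syt1, the calcium sensor of fast release, stayed at background. Its 4 probe sets ranged from 2.21 to 2.77 over all 12 arrays. The strongest by its mean, 1433884_at, was within 0.1 of the floor on 10 arrays, and the others on 11, 11 and 12. The Syt1 differences of 0.08 and 0.10 between times were not called (limma adjusted p = 0.746 and 0.567).

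**Figure D2:**
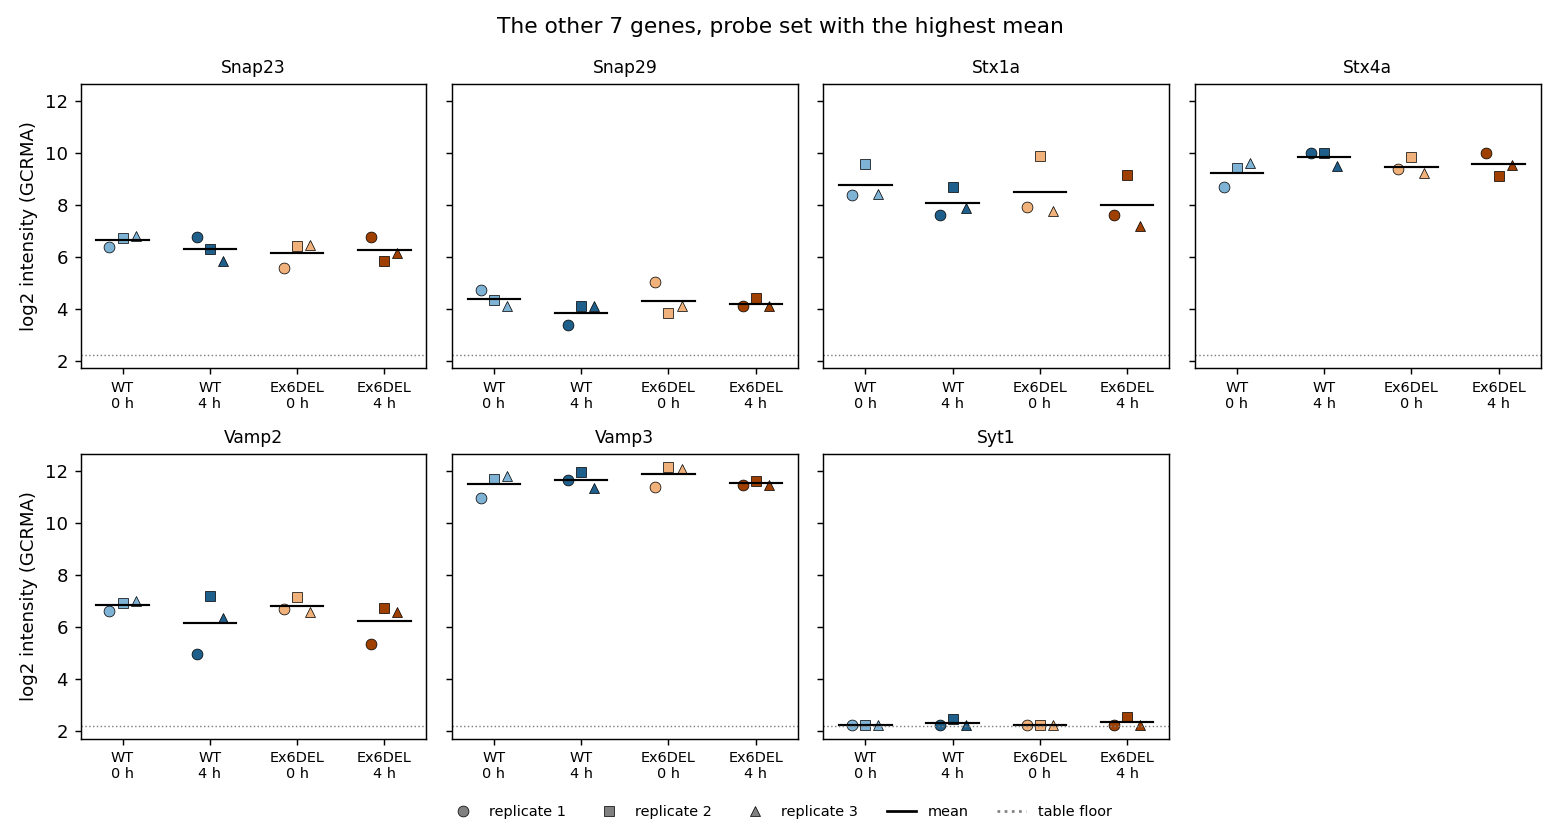
Log2 intensity of the other 7 genes on each of the 12 arrays, each by its probe set with the highest mean, with the group mean as a bar and the floor of the table as a dotted line. The arrays of 0 h and 4 h overlap for all 7 genes in both genotypes, and all Syt1 values lie between 2.22 and 2.54.

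Counted by gene, 1 of 9 passed in each genotype, and 2 of 9, Snap25 and Stx3, had every array of 4 h above every array of 0 h in both, against 3.28% of all genes (7.52% in WT and 5.13% in Ex6DEL). Counted by probe set, 2 of 26 passed in WT and 2 of 26 in Ex6DEL, both of Snap25 each time, against 0.448% and 0.532% of all probe sets. With the replicate number as a block 1 of 26 passed in WT and 1 of 26 in Ex6DEL. Of the 26, 5 had arrays of 4 h wholly above those of 0 h in WT (6.75% of all probe sets) and 5 in Ex6DEL (5.19%), 3 of them in both (2.89%). None of the 26 lay wholly below, against 7.37% of all probe sets in WT and 9.07% in Ex6DEL. Over the 9 genes the median difference was 0.08 in WT and 0.09 in Ex6DEL, against 0 and -0.01 over all genes. The 9 genes were chosen with earlier results of these data known, so these counts describe them and are not a test.

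**Figure D3:**
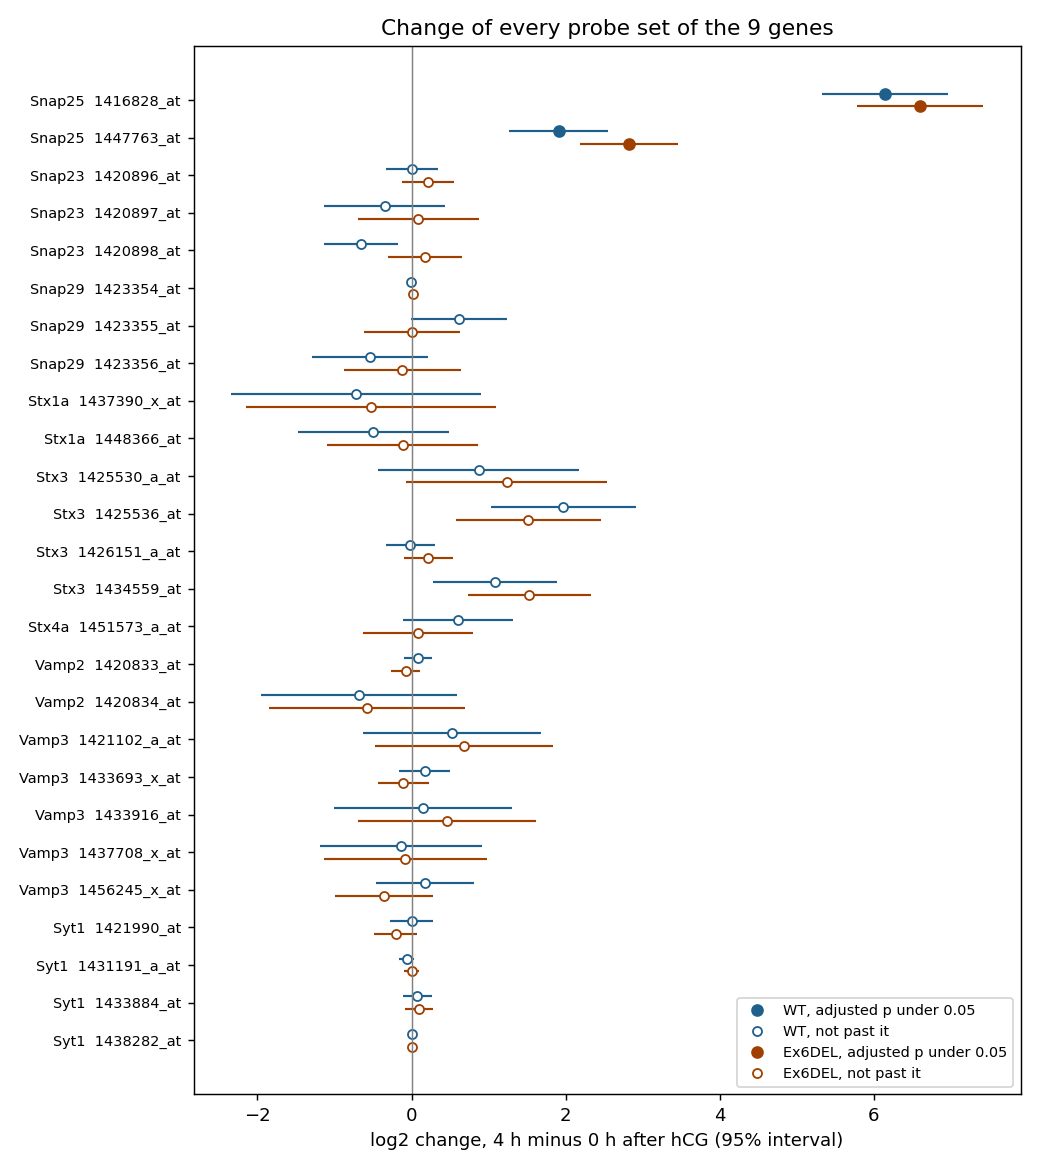
Log2 difference between 4 h and 0 h after hCG for each of the 26 probe sets, with its 95% interval, in WT (blue) and Ex6DEL (brown); filled points passed the test over all probe sets. The 4 filled points are the Snap25 sets, at 6.15 and 1.91 in WT and at 6.60 and 2.82 in Ex6DEL.

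The comparison of Ex6DEL with WT asks whether the exon 6 deletion alters these genes. None of the 9 genes passed at 0 h, at 4 h or in the difference between the responses (the interaction), and none had an unadjusted limma p under 0.05 either. Few genes of the whole array passed: 0.033% at 0 h, 0% at 4 h and 0.011% in the interaction. The order of the Snap25 means (2.45 ± 0.07 in WT 0 h, 2.49 ± 0.16 in Ex6DEL 0 h, 8.60 ± 0.52 in WT 4 h and 9.09 ± 0.72 in Ex6DEL 4 h, SD, n = 3 arrays) had Ex6DEL above WT at each time, and the arrays of neighbouring genotypes overlapped. For Snap25, Ex6DEL exceeded WT by 0.04 before hCG (interval -0.78 to 0.85) and by 0.49 after it (interval -0.32 to 1.30), and limma's adjusted p was 1 both times. Its interaction was 0.45 (SE 0.50, interval -0.70 to 1.60, limma adjusted p = 0.871).

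Single probe sets went further without passing. Snap25 set 1447763_at was higher in each Ex6DEL array than in any WT array at 4 h, by 0.99 (interval 0.35 to 1.63, unadjusted p = 0.00705, limma adjusted p = 1), and its interaction was 0.91 (unadjusted p = 0.0486, limma adjusted p = 0.871). Set 1416828_at of the same gene overlapped there. Stx3 set 1425536_at was higher in each Ex6DEL array than in any WT array at 0 h, by 0.62 (interval -0.32 to 1.55, limma adjusted p = 0.874 over genes), while the other 3 Stx3 sets overlapped. It was the 1 gene of the 9, and the 1 probe set of the 26, wholly higher at 0 h, against 3.96% of all genes and 3.44% of all probe sets. At 4 h 1 of 26 was wholly higher and 1, Snap29 set 1423355_at, wholly lower, against 1.19% and 1.44% of all probe sets. The Stx3 genotype difference at 4 h was 0.16 (interval -0.77 to 1.10) and its interaction -0.45 (interval -1.78 to 0.87). Over the 9 genes the genotype differences ran from -0.48 to 0.62 at 0 h and from -0.28 to 0.49 at 4 h, and the interactions from -0.53 to 0.45. None of the 26 probe sets passed in any of these 3 comparisons, against 0.0244%, 0.0111% and 0.0222% of all probe sets, and 1, 1 and 2 of them had an unadjusted p under 0.05.

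The rest of the secretory pathway was described with a list of 117 further genes, 110 of them measured, in 6 groups. In WT 0 rose and 1 fell, against 0.61% of all genes that rose and 0.319% that fell. In Ex6DEL 2 rose and 0 fell, against 0.566% of all genes that rose and 1.6% that fell. The one that fell in WT was Exoc6, a subunit of the exocyst, which tethers vesicles to the plasma membrane. Rims4, a member of the RIM family of release-site scaffold proteins, and Sv2c, a vesicle glycoprotein, rose in Ex6DEL. The median difference over the 110 was -0.07 in WT and -0.02 in Ex6DEL. With the replicate number as a block 0 of 110 passed in Ex6DEL. None passed in either genotype comparison or in the interaction.

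Exoc6 had 6.69, 6.89 and 6.90 in WT at 0 h and 5.32, 4.02 and 4.76 at 4 h. In Ex6DEL it had 6.31, 6.00 and 5.86 at 0 h and 5.69, 4.47 and 4.83 at 4 h. The arrays of the times did not overlap in either genotype. Exoc6 fell by 2.13 in WT (SE 0.37, limma adjusted p = 0.0430), with -1.06 in Ex6DEL (SE 0.37, limma adjusted p = 0.168). The interaction was 1.07 (limma adjusted p = 0.871), so the responses were not shown to differ. The WT call was kept in 3 of 12 limma fits that left out 1 array (-2.44 to -1.79), those without Ex6DEL 0 h replicate 1 or 3 or Ex6DEL 4 h replicate 1. Over all 24 alternatives it was kept in 11, with values of -2.44 to -0.55, and over all probe sets the same probe set did not pass (limma adjusted p = 0.0589). The 3 other Exoc6 probe sets stayed between 2.21 and 2.68.

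Rims4 had 6.11, 7.41 and 7.01 in WT at 0 h and 9.55, 10.04 and 9.06 at 4 h. In Ex6DEL it had 6.51, 6.89 and 7.94 at 0 h and 9.19, 9.79 and 10.40 at 4 h. Every 4 h array was above every 0 h array in both genotypes. The difference was 2.68 in Ex6DEL (SE 0.50, limma adjusted p = 0.0384, or 0.0567 with the replicate number as a block) and 2.71 in WT, just outside the threshold (limma adjusted p = 0.0506). Leaving out 1 array kept the Ex6DEL call in 2 of 12 limma fits, those without WT 0 h replicate 1 or Ex6DEL 0 h replicate 3, with values of 2.38 to 3.10 over the 12, and in 10 of all 24 alternatives. Over all probe sets it did not pass (limma adjusted p = 0.0610). The second Rims4 set had no overlap either, with 6.02 to 7.66 against 8.70 to 10.23 in WT and 4.25 to 7.88 against 8.66 to 9.62 in Ex6DEL.

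Sv2c had 2.26, 2.26 and 2.23 in Ex6DEL at 0 h and 3.49, 3.69 and 2.85 at 4 h. In WT it had 2.26, 2.26 and 2.21 at 0 h and 2.82, 2.26 and 2.26 at 4 h. Apart from the 3 Ex6DEL arrays of 4 h and 1 WT array, all were near the floor. The rise in Ex6DEL was 1.09 (SE 0.21, limma adjusted p = 0.0446, or 0.0614 with the replicate number as a block), the WT difference 0.20 (limma adjusted p = 0.742) and the interaction 0.89 (limma adjusted p = 0.871). The Ex6DEL call was kept in 3 of 12 limma fits that left out 1 array (0.92 to 1.34), those without WT 4 h replicate 1, Ex6DEL 0 h replicate 3 or Ex6DEL 4 h replicate 3. Over all 23 alternatives that gave a value it was kept in 7 (0.52 to 1.34), and over all probe sets it did not pass (limma adjusted p = 0.0719).

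By group, 0 of 24 other SNAREs were called in either genotype, with median differences of -0.14 in WT and -0.21 in Ex6DEL. The smallest p among them was that of Vti1a, a SNARE of the Golgi and endosomes, at -0.85 in WT (limma adjusted p = 0.0622) and -0.35 in Ex6DEL (limma adjusted p = 0.339). Of 22 SNARE regulators 0 were called (medians -0.20 and -0.04). Unc13b, a priming factor of the Munc13 family, led them with -1.35 in Ex6DEL (SE 0.35, limma adjusted p = 0.0838) and -0.34 in WT (limma adjusted p = 0.731).

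Of 23 synaptotagmins and other C2 domain proteins 0 were called (medians -0.01 and -0.03). Syt12 had the smallest p: it read 2.77, 3.08 and 2.33 in WT at 0 h and 6.30, 6.77 and 4.71 at 4 h, and 3.17, 3.08 and 4.84 against 6.05, 4.71 and 6.17 in Ex6DEL. Its times overlapped in Ex6DEL, where replicate 3 of 0 h was the high one, and not in WT. The Syt12 difference was 3.20 in WT (SE 0.67, limma adjusted p = 0.0670) and 1.95 in Ex6DEL (limma adjusted p = 0.165). The 13 RAB3, RAB27 and RIM genes had medians of -0.10 and 0.08, with Rims4 as the 1 called. The 10 exocyst genes had medians of -0.31 and -0.32, with Exoc6 as the 1 called, and the 18 granule and vesicle genes medians of -0.03 and 0.08, with Sv2c as the 1 called.

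Arrays of 4 h lay wholly above those of 0 h for 7 of the 110 genes in WT and 7 in Ex6DEL, against 7.52% and 5.13% of all genes. They lay wholly below for 10 in WT and 22 in Ex6DEL, against 11.4% and 14.5% of all genes. In both genotypes 3 were above (Chgb, Ptprn and Rims4; 3.28% of all genes) and 9 below (Bet1, Exoc4, Exoc6, Exoc7, Rph3al, Snap47, Stxbp4, Sytl2 and Vti1a; 6.45% of all genes). These names were chosen after their values were seen. The largest difference among them was that of Chgb, a granin of dense-core granules, at 5.50 in WT (SE 1.19, limma adjusted p = 0.0716) and 4.37 in Ex6DEL (SE 1.19, limma adjusted p = 0.0961). Snap47, a distant relative of Snap25, was lower at 4 h by its mean (-0.90 and -1.31, limma adjusted p = 0.255 and 0.0756).

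**Figure D4:**
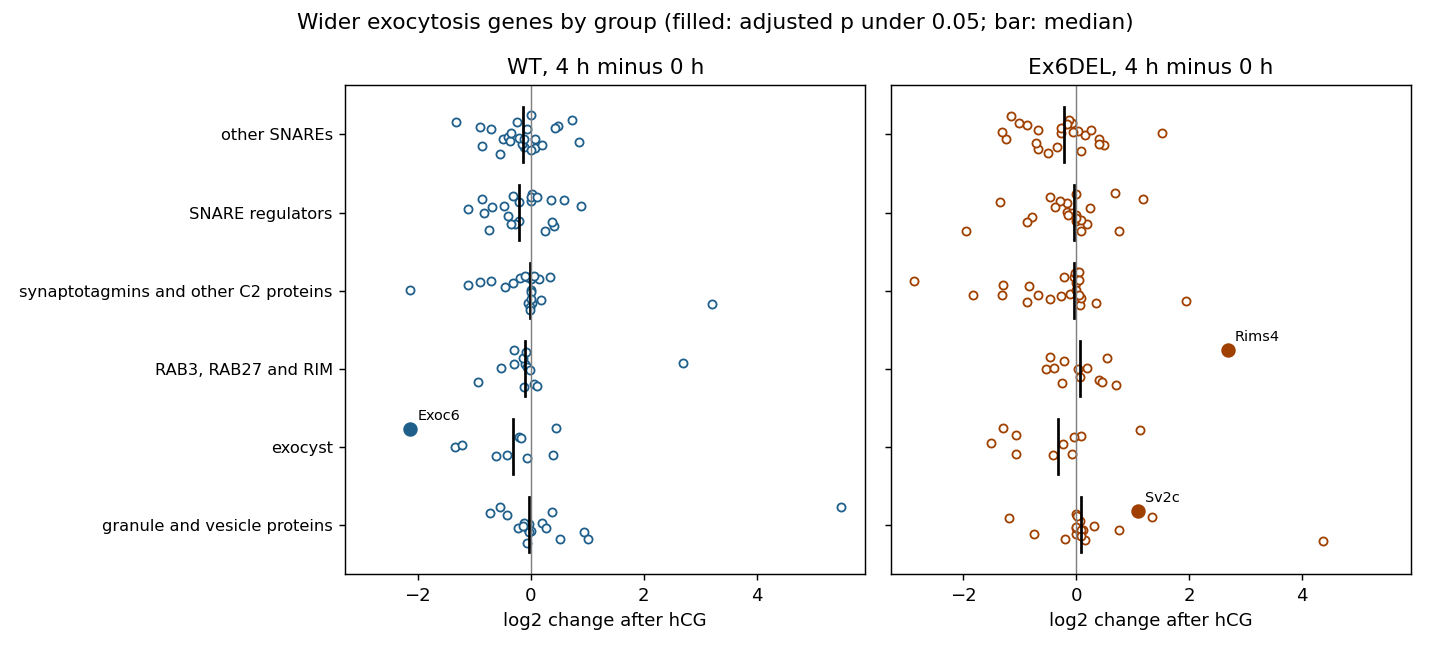
Log2 difference between 4 h and 0 h for the 110 further exocytosis genes in 6 groups, in WT (left) and Ex6DEL (right); filled points passed the test over all genes and bars mark the group's median. Most points lie close to 0, and the filled ones are Exoc6 at -2.13 in WT and Rims4 at 2.68 and Sv2c at 1.09 in Ex6DEL.

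The genes whose values followed Snap25 most closely over the 12 arrays were found by Pearson correlation, given as a description because the arrays are shared and fall into clusters by time. Among 17280 genes with a defined correlation 37 had r of at least 0.95. Predicted genes, RIKEN clones and genes without a name are left out of the ranking that follows. The 8 highest were Lepr, the leptin receptor (r = 0.996), Prkg2, a cGMP-dependent protein kinase (0.991), Gpr83, a G-protein-coupled receptor (0.985), Bves, a membrane protein of the Popeye family (0.982), Slc7a11, the cystine transporter (0.981), Jarid2, a Polycomb cofactor (0.980), Serpinb9, a granzyme inhibitor (0.977), and Bend3, a BEN domain protein (0.975). Lepr differed between times by 6.46 in WT and 6.83 in Ex6DEL, Prkg2 by 5.23 and 6.15, Gpr83 by 5.14 and 4.47, and Slc7a11 by 5.11 and 4.82. Bves differed by 2.64 and 2.43, Jarid2 by 2.06 and 1.55, Serpinb9 by 3.14 and 4.24, and Bend3 by 0.93 and 1.16. These differences follow from the choice of the genes and are given as a description.

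With each group's mean taken out, which leaves the differences between arrays of one group, the correlation with Snap25 was 0.904 for Gpr83, 0.866 for Bend3, 0.794 for Serpinb9, 0.731 for Lepr, 0.685 for Prkg2, 0.682 for Jarid2, 0.566 for Slc7a11 and 0.247 for Bves. On Ex6DEL 0 h replicate 3 Slc7a11 was 1.399 and Lepr 0.84 above the group mates, where Snap25 was at -0.12. Among the other 8 exocytosis genes Stx3 was the closest to Snap25 (r = 0.91 over the 12 arrays), followed by Stx4a (0.48) and Syt1 (0.38). The correlation was -0.10 for Snap23, -0.16 for Vamp3, -0.42 for Stx1a, -0.44 for Snap29 and -0.56 for Vamp2.

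**Figure D5:**
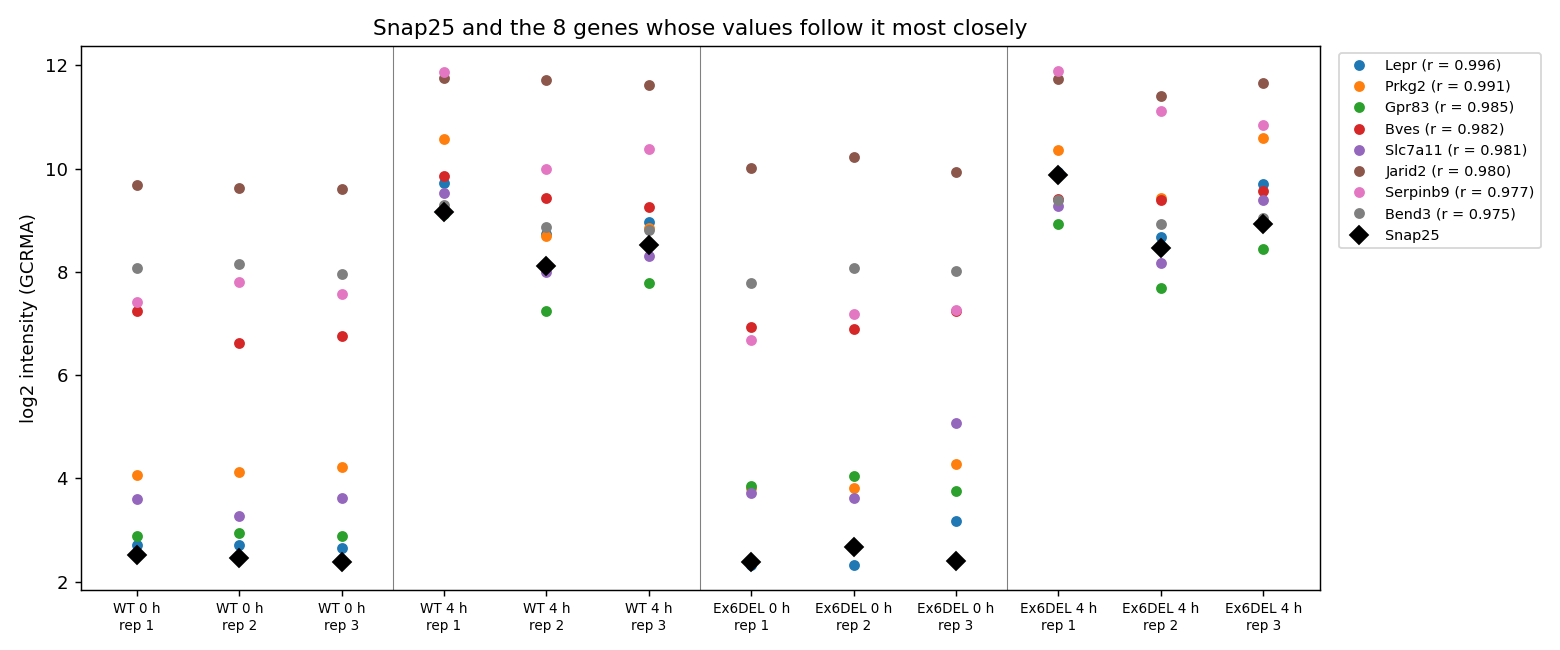
Log2 intensity on each of the 12 arrays of Snap25 (black diamonds) and of the 8 named genes with the highest correlation to it. Snap25 lies between 2.38 and 2.68 on the 6 arrays of 0 h and between 8.12 and 9.87 on the 6 of 4 h, and Slc7a11 is raised on Ex6DEL 0 h replicate 3 where Snap25 is not.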

How the data were processed

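RNA of mouse granulosa cells was measured on 12 Affymetrix arrays in 4 groups of 3, grouped by the sample titles. Per array, the authors deposited 1 log2 intensity for each probe set, made with GCRMA (version not given) per the submitters' processing notes. Array signal has no read depth, so the number of arrays limits the precision. Of 45101 probe sets, 34958 have exactly 1 gene symbol in the platform annotation, 932 have several and 9211 are not listed. A gene was represented by its probe set with the highest mean, which left 18194 genes.

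All 12 arrays entered 1 linear model (limma 3.58.1, R 4.3.3; lmFit, then eBayes with neither trend nor robust), with 8 residual and 0.626 prior degrees of freedom. Tests were two-sided, adjusted by Benjamini-Hochberg over all genes (or over all 45101 probe sets where a probe set is tested), and called at an adjusted p under 0.05. SE and 95% intervals come from the model. The fit was tested on simulated data.

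Named genes are the 9 members with all probe sets, every called gene of the wider list, the gene with the smallest p in each of its groups without a call, and the 8 named genes most correlated with Snap25. Any other gene was chosen after its values were seen. Members and lists were chosen with earlier results of these data known. Same-numbered arrays of the Ex6DEL response deviated together over all genes (r 0.14 to 0.35, 3 of 3 pairs over 0.1), so the numbers were taken to pair them. In WT this held for 1 of 3 pairs (r -0.01 to 0.20). Between the genotypes it held for 2 of 3 pairs at each time (r -0.06 to 0.45 at 0 h and 0.01 to 0.66 at 4 h). Neither array probe positions nor their genome build is given in the sources used here. Markers of 8 cell types covered 65 of 70 symbols measured, and beside those named in the text oocyte markers averaged 6.35 to 8.24, leukocytes 5.43 to 6.39, endothelium 4.01 to 5.42, red blood cells 5.10 to 6.84 and platelets 3.24 to 3.70.

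The alternatives were quantile normalization, a shift to one median, a test of genes above the median level alone, low values raised to the table median, the mean of all probe sets, eBayes with trend and robust, array weights, the groups compared alone, a replicate block, an adjusted p under 0.01, each array left out, and both 0 h arrays with raised 4 h genes left out. A fit without probe sets that bind several transcripts was chosen after seeing the data.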

Additional observations from a re-analysis of the deposited data

How the results depend on the processing

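No called result reversed its direction under any alternative run. Snap25 in WT was called under all 24 alternatives (4.03 to 6.39), and in Ex6DEL under 23 of 24 (4.71 to 6.91), the exception being the fit of the groups compared alone (6.60, adjusted p = 0.0532), which has fewer samples. Leaving out 1 array gave Snap25 changes of 5.87 to 6.39 in WT and 6.21 to 6.91 in Ex6DEL.

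The count of members called was 2 in WT, Snap25 and Stx3, with quantile normalization, with genes above the median level, with low values raised and with array weights. In Ex6DEL it was 2 with the first and second of these and 0 with the groups compared alone. It was 1 in both genotypes whichever array was left out. Member probe sets called in WT came to 1 with quantile normalization, the groups compared alone, the replicate block, an adjusted p under 0.01, or without 2 arrays of 0 h (WT replicate 1 and Ex6DEL replicate 3), and to 1 to 2 with 1 array left out. In Ex6DEL they came to 0 with the groups compared alone, 1 with the replicate block and 1 at an adjusted p under 0.01, and to 2 to 3 with 1 array left out.

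For the wider list, in WT the count of called genes, 1 as reported, was 3 with quantile normalization, 2 with the shift to one median, 3 with genes above the median level, 5 with low values raised, 14 with array weights and 2 without the 2 arrays of 0 h. It was 0 with the groups compared alone, the replicate block or an adjusted p under 0.01. In Ex6DEL its count, 2 as reported, was 1 with quantile normalization, 5 with the shift, 13 with genes above the median level, 5 with low values raised, 1 with the mean of all probe sets, 1 with array weights and 11 without the 2 arrays of 0 h. It was 0 with the groups compared alone, the replicate block or an adjusted p under 0.01. Without those 2 arrays 2 genes were called at 0 h and 1 in the interaction. With 1 array left out the count ran from 0 to 4 in WT and from 0 to 13 in Ex6DEL, highest without Ex6DEL 0 h replicate 3 both times, and from 0 to 1 at 0 h and in the interaction. The causes were not tested. The number called over all genes also varied widely between alternatives, as given below. Its share under each setting is not set beside these counts, so they are not a result about the list.

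The replicate number as a block changed no other call of Snap25 or of the members. Between the WT times the pairing by number was less clear: 3 of 6 arrays correlated best with their own number, and the block brought the calls over all genes to 85. For the genotype comparisons 2 of 3 same-numbered pairs exceeded 0.1 at each time. Their r ran from -0.06 to 0.45 at 0 h and from 0.01 to 0.66 at 4 h, so the highest exceeded those between times. Arrays correlated best with their own number in 4 of 6 cases at 0 h and 3 of 6 at 4 h. WT 4 h replicate 3 and Ex6DEL 4 h replicate 2, of unlike number, reached 0.40. The main fit compared genotypes without the block. With the block no member was called between genotypes at either time or in the interaction. Over all genes the called number ranged from 17 to 2289 in WT and from 8 to 1334 in Ex6DEL over the alternatives. Values near the floor or repeated over arrays limit what can be seen of Syt1, Sv2c, Snap29 and the weaker probe sets.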
